A study of Mus musculus with 2 samples.

Results

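The 10 genes Ccl2, Ccl7, Ccl8, Ccl12, Ccl3, Ccl4, Ccl5, Ccl6, Ccl9 and Ccl24, all of the CC chemokine family, were followed across the cells of the atherosclerotic mouse aorta. They were chosen by symbol, as 10 of the 32285 genes measured, because earlier results of these data showed them in monocytes and macrophages. Their levels by cell type therefore chose them, and those levels are given as a description with no test. The name only partly held. Ccl3 and Ccl4 stood highest in neutrophil-like cells and Ccl5 in T/NK-like cells, so the 10 genes are called CC chemokines below.

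CC chemokines are small secreted proteins, named for a pair of adjacent cysteines, that bind to cell-surface glycans and draw leukocytes along a gradient through G protein-coupled receptors. CCL2, CCL7 and CCL12 act on CCR2 and bring monocytes out of the bone marrow and into inflamed vessel walls. CCL3, CCL4 and CCL5 draw monocytes and T cells, CCL6 and CCL9 act on CCR1, and CCL24 acts on CCR3, the receptor of eosinophils. In atherosclerosis, loss of CCL2 or CCR2 is known to lower the number of macrophages in plaques.

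Single-cell RNA-seq was available from 2 libraries of mouse aorta, 1 per group. Both groups lacked ApoE (ApoE-/- on C57BL/6) and ate a Western diet, which together produce atherosclerosis. The group called WT carried no further deletion named in the labels. The group called EC-iCD45KO carried a tamoxifen-inducible deletion of CD45, the leukocyte phosphatase encoded by Ptprc, in endothelial cells (EC). The Cre driver, the dosing and the sex, age and number of animals per library are not given in the sources used here. Cells were freed from the aorta with collagenases and Liberase and then enriched with beads against CD31, a surface protein of endothelial cells that leukocytes also carry. The bead step can set the shares of cell types, so the shares are not read as those of the tissue.

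The WT library held 39849 barcodes and 92058043 UMIs (unique molecular identifiers, each marking 1 captured RNA molecule), and the EC-iCD45KO library 30278 barcodes and 88967918 UMIs. The median barcode had 1548 and 1405 UMIs, with 1.90% and 3.03% mitochondrial. After filters 35672 and 26179 cells were kept, and 253 cell barcodes occurred in both. Marker genes named 14 of 19 candidate classes, and 29.0% of WT and 10.4% of EC-iCD45KO cells stayed unnamed. Ptprc stood at 305 CPM (UMIs of a gene as parts of the UMIs of the class, on the usual CPM scale) in WT and 113 CPM in EC-iCD45KO in EC-like cells, but also at 447 and 253 CPM in macrophage-like cells, which the deletion was not meant to reach. It was higher in EC-iCD45KO in neutrophil-like (939 and 1728 CPM) and B-like cells (751 and 1261 CPM). In EC-like cells, B markers summed to 1735 and 628 CPM and T/NK markers to 444 and 85.7 CPM, and their part in the Ptprc value was not tested. With 1 library per group no test between the groups was possible, and 95% intervals, in parentheses, cover counting error only.

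Ccl24 lies on mouse chromosome 5 and the other members on chromosome 11, in GENCODE M21 coordinates on GRCm38. Ccl2 (82035571 to 82037453), Ccl7 (82045712 to 82047525), Ccl12 (82101845 to 82103400) and Ccl8 (82115185 to 82116799) follow each other on the plus strand, with gaps of 8.26, 54.3 and 11.8 kb. After 1409 kb come Ccl5 (83525778 to 83530518), Ccl9 (83572919 to 83578636), Ccl6 (83587882 to 83593087) and Ccl3 (83647844 to 83649355) on the minus strand, and Ccl4 (83662584 to 83664683) on the plus strand. Ccl24 is on the minus strand at 135569937 to 135573049. Ccl6 and Ccl9 have 4 exons in their first transcript and the other members 3. Ccl2 overlaps Gm17268 and Ccl6 overlaps E230016K23Rik, both present in the matrices, and the split of reads between these genes is uncertain. Of the 50-base windows of the members' transcripts, 1.97% of those of Ccl9 also occur in other genes, and none of the other members' do.

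Promoter sequences from RefSeq (GRCm38.p6) were matched for 5 of the 10 members. The sequences of 4 are shown because they belong to neighbouring pairs whose levels differed: Ccl12 and Ccl8, which by the mean of both libraries stood highest in macrophage-like cells, and Ccl6 and Ccl9, which stood highest in monocyte-like cells. Each run is the 250 bases before the RefSeq start, written 5′ to 3′ on the gene's strand. The positions are chr11:82101595-82101844 (plus) for Ccl12, chr11:82114935-82115184 (plus) for Ccl8, chr11:83593088-83593337 (minus) for Ccl6 and chr11:83578637-83578886 (minus) for Ccl9. Capitals mark matches to 5 motifs searched on both strands: a TATA box (TATAAA), an AP-1 site (TGANTCA), an interferon-stimulated response element (GAAANNGAAA), a PU.1 site (GAGGAA) and the NF-kB consensus.
Ccl12: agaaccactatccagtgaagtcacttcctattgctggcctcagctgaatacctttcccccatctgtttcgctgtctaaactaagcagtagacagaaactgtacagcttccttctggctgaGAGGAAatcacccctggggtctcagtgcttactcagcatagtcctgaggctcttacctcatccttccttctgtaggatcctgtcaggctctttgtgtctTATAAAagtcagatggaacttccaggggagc
Ccl8: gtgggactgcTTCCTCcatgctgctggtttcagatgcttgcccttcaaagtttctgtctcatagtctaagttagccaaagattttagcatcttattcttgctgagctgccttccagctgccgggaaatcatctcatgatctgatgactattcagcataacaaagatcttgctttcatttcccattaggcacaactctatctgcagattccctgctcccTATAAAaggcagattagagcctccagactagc
Ccl6: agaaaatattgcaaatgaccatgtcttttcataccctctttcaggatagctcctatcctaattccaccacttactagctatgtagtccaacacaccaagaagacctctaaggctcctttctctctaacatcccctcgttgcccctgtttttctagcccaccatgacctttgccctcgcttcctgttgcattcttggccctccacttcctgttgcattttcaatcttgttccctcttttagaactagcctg
Ccl9: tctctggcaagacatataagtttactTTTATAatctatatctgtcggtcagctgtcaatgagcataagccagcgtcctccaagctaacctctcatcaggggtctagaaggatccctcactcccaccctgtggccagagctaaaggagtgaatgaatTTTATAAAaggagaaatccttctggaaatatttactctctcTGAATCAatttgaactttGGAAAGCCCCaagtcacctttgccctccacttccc
Ccl12 and Ccl8 each held TATAAA close to the start, at 31 to 26 and 32 to 27 bases before it. Each also held a PU.1 match, at 130 to 125 bases before the start in Ccl12 and at 240 to 235 in Ccl8. Ccl9 held an NF-kB match at 35 to 26 bases, an AP-1 match at 53 to 47 bases and TATA matches at 224 to 219, 94 to 89 and 92 to 87 bases, the last pair overlapping on opposite strands. Ccl6 held none of the 5 motifs in this window. Of 32851 promoters of the same length, 12.4% held the TATA box, 7.25% the NF-kB motif, 6.75% the AP-1 motif, 2.98% the interferon motif and 23.2% the PU.1 motif. Such matches are letters in a window, not shown sites.

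Of the ligands of CCR2, Ccl2 stood highest in monocyte-like cells, at 361 CPM (333–390) in WT and 526 CPM (509.6–542) in EC-iCD45KO. Macrophage-like cells followed at 277 CPM (266–287) and 458 CPM (450–466). Ccl7 had the opposite order of these classes, with 232 and 403 CPM in macrophage-like and 142 and 365 CPM in monocyte-like cells. Under a looser cell filter Ccl7 stood highest in monocyte-like cells. Ccl12 was the most macrophage-bound of the CCR2 ligands, at 441 CPM (428–455) and 607 CPM (598–617) in macrophage-like cells against 66.3 and 110 CPM in monocyte-like cells. Ccl8, whose mouse protein is known to act on CCR8, showed the same order, at 934 CPM (914.7–954) and 499.7 CPM (491–508) against 77.3 and 34.2 CPM. In EC-iCD45KO, however, Schwann-like cells held Ccl8 at 602 CPM, above macrophage-like cells. That order was lost without the cell holding most Ccl8 UMIs in each class and library. By the mean of both libraries Schwann-like cells then stood below the 168 CPM of plasma-like cells, against 687 CPM in macrophage-like cells.

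Ccl3 and Ccl4, the macrophage inflammatory proteins 1-alpha and 1-beta, stood highest in neutrophil-like cells in both libraries. Ccl3 reached 2353 CPM (2239–2472) in WT and 2532 CPM (2462–2603) in EC-iCD45KO there, against 290 and 332 CPM in macrophage-like cells. Ccl4 reached 4122 CPM (3971–4278) and 4306 CPM (4215–4399), against 1411 and 1260 CPM in macrophage-like and 933 and 566 CPM in dendritic-like cells. After thinning each cell to 1000 UMIs, 59.7% and 60.03% of neutrophil-like cells held a Ccl3 UMI, from median depths of 1092 and 1284 UMIs. B-like cells, which should largely lack these transcripts, held one in 0.632% and 1.29% of cells, from median depths of 2004.5 and 2550 UMIs. Ccl5, also called RANTES and known from activated T and NK cells, stood at 1358 CPM (1334–1383) and 1312 CPM (1252–1374) in T/NK-like cells. Dendritic-like cells held 294 and 212 CPM, erythroid-like cells 347 and 23.2 CPM (155 and 7 UMIs), and macrophage-like cells held 59.99 and 50.2 CPM.

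Ccl6 and Ccl9, CCR1 ligands of rodents with no direct human counterpart, shared their highest class. Monocyte-like cells held Ccl6 at 741 CPM (701–783) in WT and 1305 CPM (1279.5–1331) in EC-iCD45KO, followed by neutrophil-like cells at 713 and 944 CPM. Macrophage-like cells held 349 and 425 CPM and erythroid-like cells 96.3 and 776 CPM. Ccl9 stood at 408 CPM (379–439) and 694 CPM (675–713) in monocyte-like cells and, unlike Ccl6, at 54.7 and 187 CPM in neutrophil-like cells. Ccl24, the eotaxin 2 gene, was sparse in each class. It held 19 and 225 UMIs in monocyte-like cells (10.95 and 29.6 CPM) and 152 and 141 UMIs in macrophage-like cells (16.2 and 4.98 CPM). In WT macrophage-like cells 63 of the 152 UMIs came from 1 cell. Neutrophil-like cells held 0 and 2 Ccl24 UMIs, the former allowing up to 5.46 CPM by the exact Poisson interval.

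**Figure D1:**
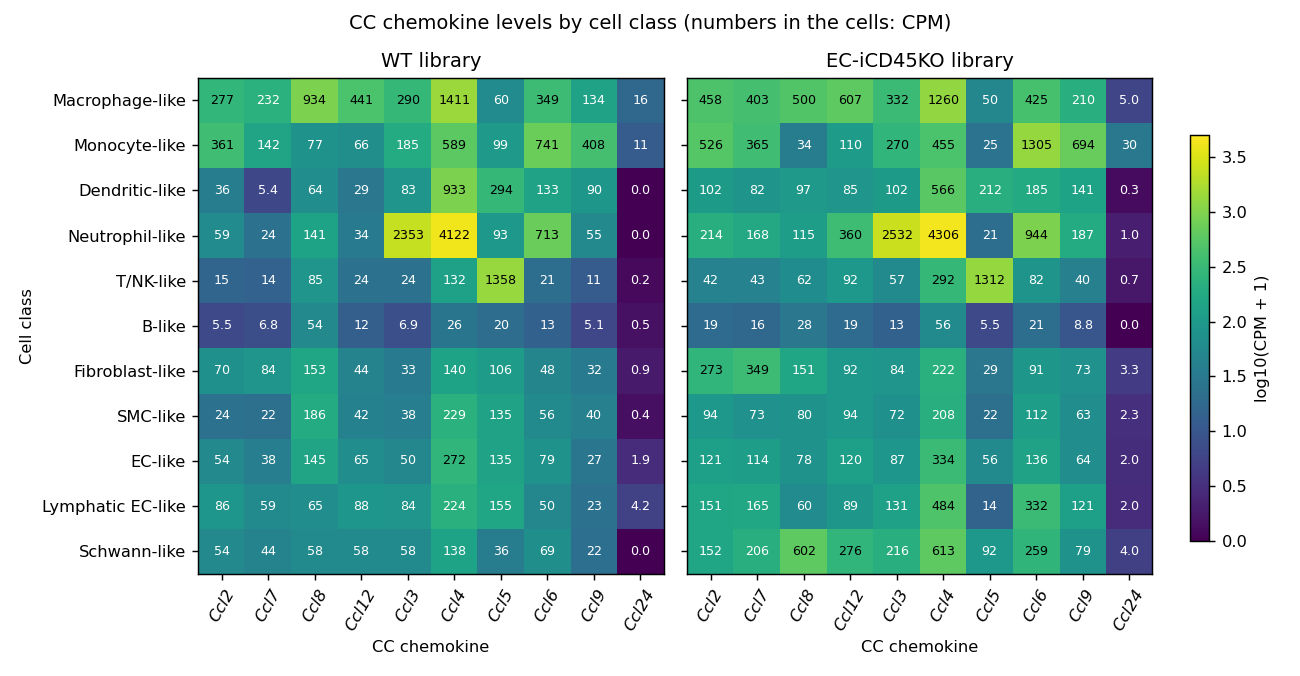
Level of each CC chemokine (columns) in 11 cell classes (rows) in the WT library (left) and the EC-iCD45KO library (right); colours give log10(CPM + 1) and the printed numbers CPM. Ccl3 and Ccl4 peak in neutrophil-like cells, Ccl5 in T/NK-like cells, Ccl6 and Ccl9 in monocyte-like cells and Ccl12 in macrophage-like cells. Ccl8 peaks in macrophage-like cells in WT and in Schwann-like cells in EC-iCD45KO, but the Schwann-like peak was lost without the cell holding most Ccl8 UMIs.

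Across the 30 clusters with at least 50 cells in each library, levels of most members ran together and those of Ccl5 did not. This is a description over clusters that share libraries and differ in depth. Pearson's r of log2(CPM + 1) was 0.96 for Ccl2 with Ccl7 and 0.96 for Ccl3 with Ccl4. Genes that lie beside each other were not always the most alike: r was 0.89 for Ccl6 with Ccl9, 0.79 for Ccl12 with Ccl8, 0.76 for Ccl7 with Ccl12 and 0.15 for Ccl5 with Ccl9, against 0.88 for Ccl2 with Ccl9, which are far apart. Among the other genes, the most alike to Ccl12 were C1qa (0.94), Fcrls (0.93) and C1qc (0.93), macrophage genes of complement and of an Fc receptor-like protein. Ccl8 ran closest to Mrc1 (0.83), the mannose receptor, then to Apoc4 (0.80) and Fcrls (0.79). For Ccl2 these genes were Ifi207 (0.94) and Cxcl16 (0.92), and for Ccl7 they were Ang (0.91) and Ifi207 (0.91). Ccl3 ran closest to Nlrp3 (0.97), Cxcl2 (0.96) and Csf3r (0.95), and Ccl4 to Siglece (0.93), Basp1 (0.93) and Nlrp3 (0.93), genes of neutrophils and inflammasome priming among them. Ccl6 ran with Itgam (0.96), Igsf6 (0.96) and Clec4n (0.95), and Ccl9 with Zeb2os (0.94), Atp6v0c (0.93) and Tlr2 (0.93). Ccl5 ran closest to St8sia1 (0.83), Xcl1 (0.81) and Ms4a6b (0.81). The weakest first match was that of Ccl24, to Ltc4s (0.69), followed by F13a1 (0.67) and Prxl2b (0.67).

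Thinning left out shallow cells and kept 2102 of 2372 WT but 5253 of 7831 EC-iCD45KO macrophage-like cells. The shares, UMI parts and pair counts that follow cover only the cells kept. The libraries are thus set side by side on unlike parts of the class, and the effect of this on the values was not tested. Most of the macrophage-like cells kept carried at least 1 of the 10 genes. After thinning, 72.9% (71.0–74.8) of them did in WT and 82.8% (81.8–83.8) in EC-iCD45KO, against 12.4% and 12.9% of B-like, 41.3% and 48.7% of EC-like, 46.1% and 59.8% of fibroblast-like and 85.8% and 92.2% of neutrophil-like cells. At least 3 members were found in 24.4% (22.5–26.3) and 36.4% (35.1–37.7) of macrophage-like cells and in 0.167% and 0.0% of B-like cells. The 10 genes nevertheless took a near-equal part of the thinned UMIs of macrophage-like cells, 0.448% and 0.453%. Cells with both members of a pair were counted beside the product of their shares, as a description over pooled clusters whose levels differ, which by itself raises such values. Ccl2 and Ccl7 shared 127 WT and 531 EC-iCD45KO macrophage-like cells, 2.85 and 1.83 times the product. Ccl6 and Ccl9 gave 2.57 and 1.55 times and Ccl3 and Ccl4 1.66 and 1.45 times, while Ccl2 and Ccl12, which are not adjacent, gave 2.12 and 1.56 times. Ccl8 and Ccl24, on different chromosomes, gave 4.85 and 4.16 times, but from 14 and 10 shared cells.

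The libraries were then compared class by class. In macrophage-like cells Ccl2, Ccl7, Ccl9 and Ccl12 were higher in EC-iCD45KO and Ccl8 and Ccl24 lower. Ccl9 (134 CPM in WT, 210 CPM in EC-iCD45KO) gave a log2 ratio, EC-iCD45KO over WT, of 0.65 (0.56–0.74), and Ccl12 gave 0.46 (0.41–0.51). Ccl8 gave -0.90 (-0.94 to -0.86) and Ccl24 -1.70 (-2.04 to -1.36). Ccl3, Ccl6, Ccl4 and Ccl5 differed by at most 0.28 in either direction, at 0.19, 0.28, -0.16 and -0.26. The median of the 10 members was 0.24, and 6 of them were higher, as were 44.9% of all genes, beside a median of -0.03 over the 9503 genes tested. No member was at least 2-fold higher, where 1.16% of genes were, and Ccl24 alone was at least 2-fold lower, where 1.35% were. Without the cell holding most Ccl24 UMIs in each library the Ccl24 ratio was -1.06, and from means of single-cell CPM it was -0.043. The Ccl5 ratio ran from -0.96 to -0.065 over the alternatives.

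The macrophage-like cells of the libraries differed in makeup. In WT 46.5% of them belonged to cluster 9, led by Gpnmb, Mmp12 and Trem2, genes of lipid-laden foam cells. In EC-iCD45KO 46.1% belonged to cluster 2, which shared Gpnmb and Mmp12 but was shallow, with median depths of 1153 and 866.5 UMIs. Cluster 6, led by Mrc1, Fcrls and class II genes, made up 34.7% and 33.9%. With these clusters weighted equally the members' median was 0.12.

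**Figure D2:**
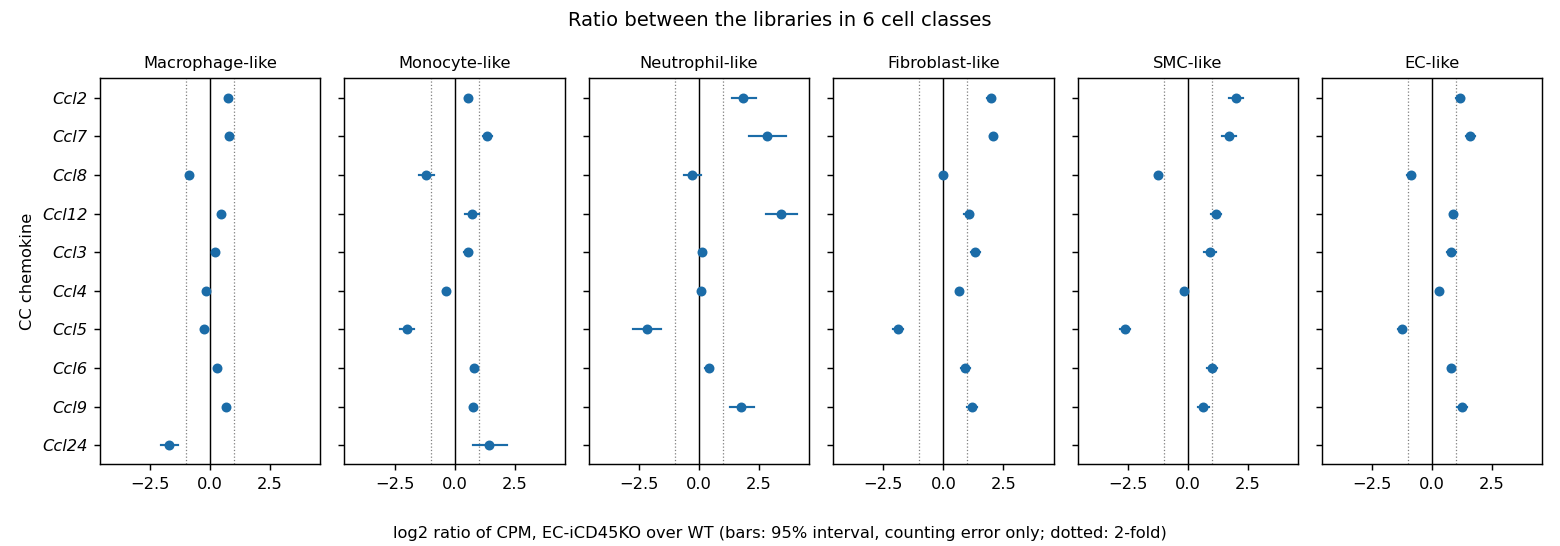
log2 ratio of CPM, EC-iCD45KO over WT (horizontal axis), of each CC chemokine (rows) in 6 cell classes (panels), with 95% intervals for counting error; dotted lines mark 2-fold, and members with a mean under 5 CPM have no point. Ccl2 and Ccl7 lie right of 0 in each panel and Ccl5 left of it, while Ccl8 lies left of 0 in the macrophage-like, monocyte-like, SMC-like and EC-like panels and its interval spans 0 in the other panels.

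Within cluster 6, Ccl8 and Ccl24 were far lower in EC-iCD45KO and the CCR2 ligands near level. Ccl8 stood at 2564 CPM (2509–2620) in WT and 924 CPM (907–942) in EC-iCD45KO, which gave a log2 ratio of -1.47 (-1.51 to -1.43). The other alternatives run gave -1.30 to -2.06. Ccl24 stood at 44.3 CPM (142 UMIs) and 3.99 CPM (48 UMIs), a ratio of -3.47 (-3.98 to -2.99), or -3.04 without the cell holding most of its UMIs. Ccl6 (638 and 449 CPM) and Ccl4 (2250 and 1901 CPM) were lower by less, though Ccl4 gave 0.41 with each library centred. Ccl2 (517 and 583 CPM), Ccl7 (541 and 563 CPM), Ccl12 (999.5 and 1066 CPM) and Ccl3 (455 and 468 CPM) differed by at most 0.17 on the log2 scale. With each library centred before clustering, the matched cluster gave 1.13 for Ccl2, 0.97 for Ccl7, 0.98 for Ccl12 and -2.06 for Ccl8, but held 76 WT cells beside 2255 EC-iCD45KO cells, with median depths of 1446 and 5096 UMIs. The share of cluster 6 cells with a Ccl8 UMI after thinning was 34.1% (30.8–37.6) and 19.8% (18.2–21.5), beside 4.18% and 2.57% of B-like cells, and that with a Ccl12 UMI was 38.9% and 37.9%. Ccl8 was concentrated in few cells, with up to 318 UMIs in 1 WT cell and 726 in 1 EC-iCD45KO cell.

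In the foam-cell-like cluster 9 the CCR2 ligands and the CCR1 ligands were higher in EC-iCD45KO. Ccl7 stood at 60.3 CPM (53.8–67.3) in WT and 297 CPM (287–308) in EC-iCD45KO, a log2 ratio of 2.30 (2.13–2.47). Ccl2 (159 and 392 CPM) gave 1.31 (1.198–1.42), Ccl9 (61.1 and 178 CPM) 1.54 (1.37–1.72) and Ccl6 (130.2 and 299.9 CPM) 1.204 (1.08–1.33). The Ccl9 ratio ran from 0.73 to 1.86 over the alternatives. Ccl4 was lower there, at 999 and 729 CPM, but gave 0.26 with each library centred, where the matched cluster held 22 WT and 1523 EC-iCD45KO cells. Ccl8 was low in both libraries, at 58.2 and 78.8 CPM. The Ccl6 ratio was -0.058 under a stricter cell filter, and the Ccl8 ratio was -0.30 under that filter and -0.37 at a finer clustering. In cluster 2 the same CCR2 ligands were higher as well, with Ccl2 at 117 and 310 CPM, and Ccl8 was higher too, at 263 and 413 CPM (0.65, 0.46–0.84). Ccl8 was thus lower in EC-iCD45KO in 1 of the 3 macrophage-like clusters, the one with most of it.

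**Figure D3:**
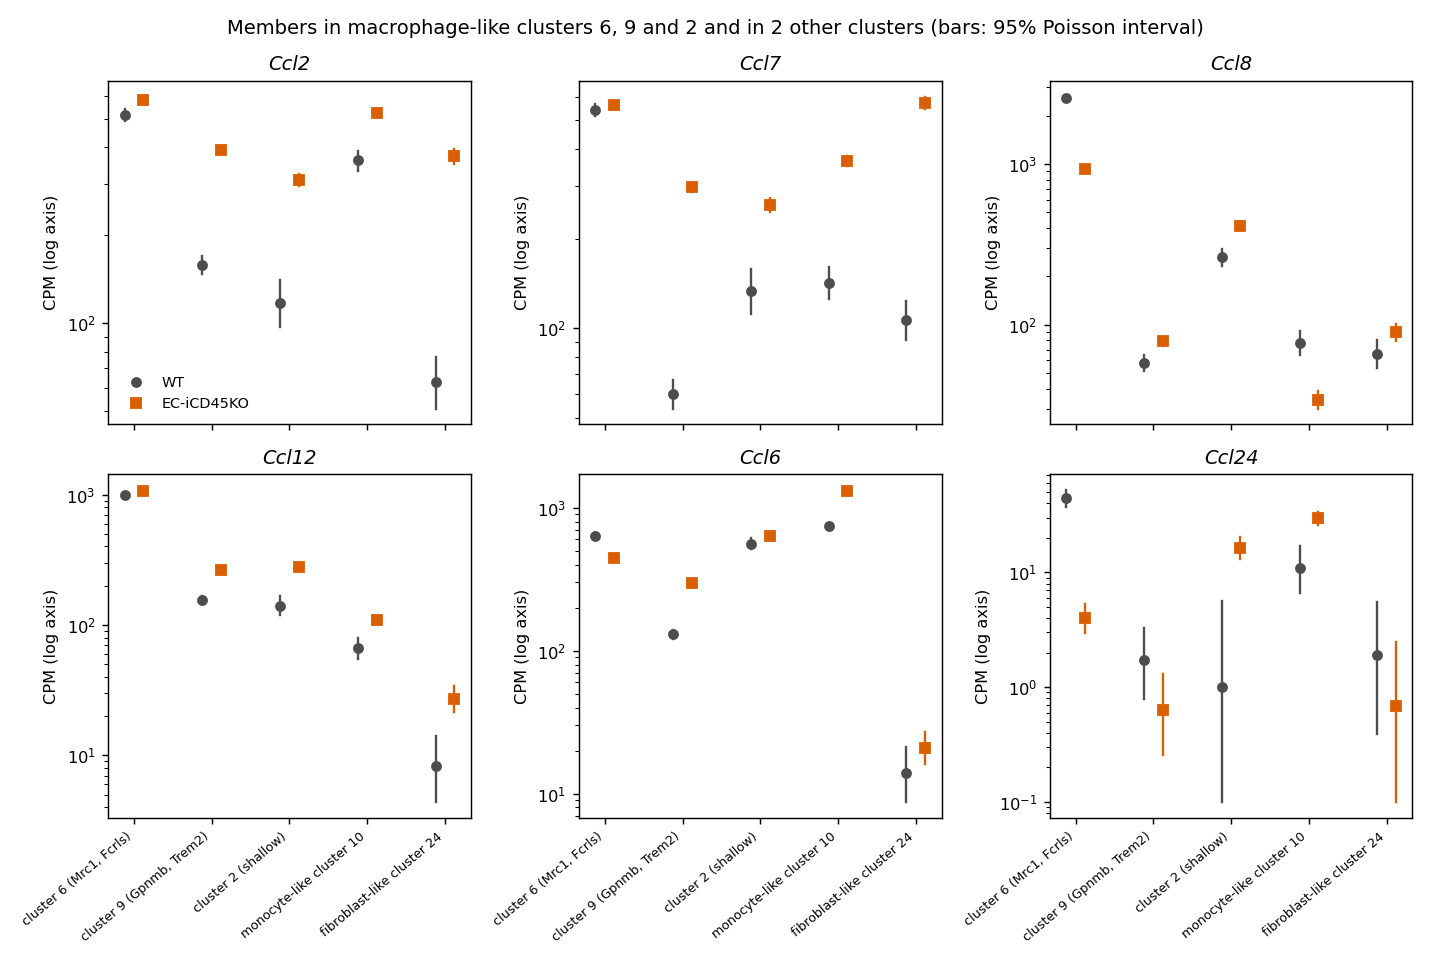
CPM on a log axis of 6 CC chemokines in macrophage-like clusters 6, 9 and 2, monocyte-like cluster 10 and fibroblast-like cluster 24, for WT (grey circles) and EC-iCD45KO (orange squares), with 95% Poisson intervals. Ccl2 and Ccl7 are near level in cluster 6 and higher in EC-iCD45KO in the other clusters, while Ccl8 is lower in clusters 6 and 10; the lowest Ccl24 bars are cut short.

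Cluster 6 was split further by UMIs of Lyve1, Folr2 or Cd163, genes known from resident arterial macrophages, a split chosen after the values were seen. Folr2 does not mark cluster 6 in these data: it stood at 234 and 178 CPM in cluster 9 and at 98.9 and 29.4 CPM in cluster 6, whereas Lyve1 and Cd163 were near 0 in cluster 9. Cells with such a UMI were 136 of the WT cells (16.5%) and 212 of the EC-iCD45KO cells (7.98%), with median depths of 4193 and 5624.5 UMIs. The cells without had 3456.5 and 4246 UMIs. Ccl8 stood at 7159 CPM (6950–7374) in the WT cells with such a UMI and 3408 CPM (3307–3511) in those of EC-iCD45KO. In the cells without, it stood at 1467 CPM (1421–1515) and 630 CPM (615–645). Ccl8 was thus higher in the cells with such a UMI in both libraries, and lower in EC-iCD45KO on both sides of the split. Ccl6 followed the split (1666 and 1040 CPM with, 392 and 379 CPM without), as did Ccl9 (434 and 351 CPM with, 179 and 206 CPM without). Ccl24 stood at 102 and 22.7 CPM with and 30.5 and 1.76 CPM without, where 63 of the 79 WT UMIs came from 1 cell. Ccl12 did not follow it, at 997 and 1213 CPM with and 1000.1 and 1048 CPM without. Ccl4 had the opposite order, at 1324 and 1568 CPM with and 2471 and 1941 CPM without. Ccl2, near level over the whole cluster, stood at 422 CPM (373–477) and 683 CPM (638–730) with and 540 and 572 CPM without. Ccl7 stood at 618 CPM (558–684) and 734 CPM (687–782) with and 522 and 543 CPM without. The markers themselves differed between the libraries in cluster 6, with Lyve1 at 25.3 and 3.82 CPM and Mrc1 at 862 and 564 CPM, and their part in the Ccl8 difference was not tested further.

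**Figure D4:**
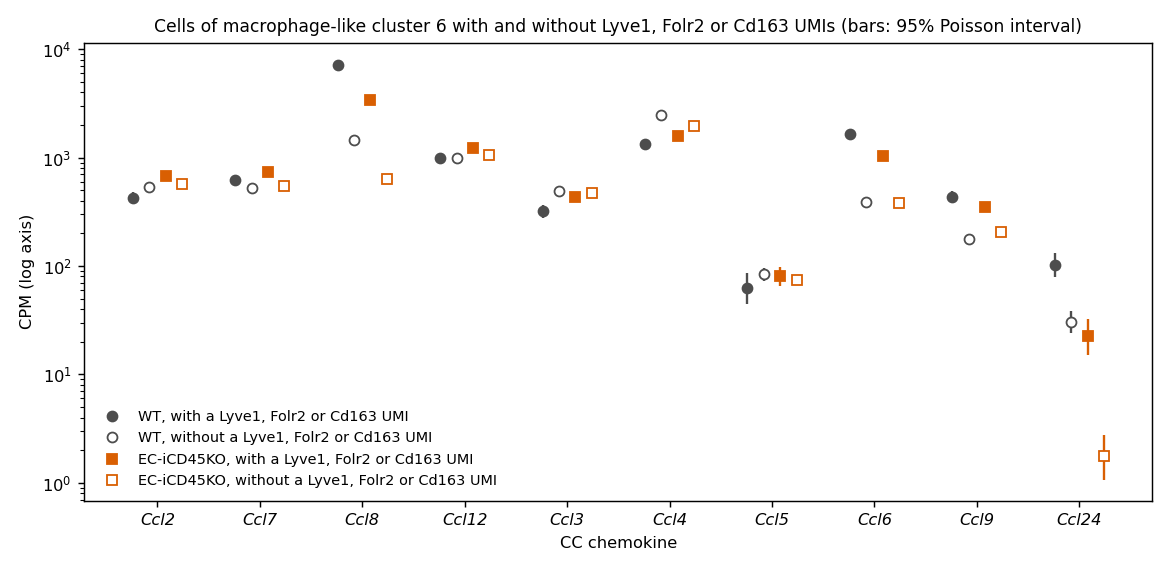
CPM on a log axis of each CC chemokine in cells of macrophage-like cluster 6 with (filled) and without (open) a UMI of Lyve1, Folr2 or Cd163, for WT (grey circles) and EC-iCD45KO (orange squares), with 95% Poisson intervals. Ccl8, Ccl6, Ccl9 and Ccl24 are higher in cells with such a UMI in both libraries, and Ccl8 is lower in EC-iCD45KO on both sides.

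Monocyte-like cells, a single cluster led by Chil3 and Cxcl3, held 497 WT and 1595 EC-iCD45KO cells. Ccl6 and Ccl9 were higher in EC-iCD45KO there, with log2 ratios of 0.82 (0.73–0.90) and 0.76 (0.65–0.88), and so were Ccl7 at 1.36 (1.17–1.55) and Ccl2 at 0.54 (0.42–0.67). Ccl5 (98.6 and 24.9 CPM) was lower, at -1.99 (-2.29 to -1.68), with -3.68 under a stricter cell filter, and Ccl8 gave -1.18 (-1.48 to -0.86). Ccl4 gave -0.37 (-0.47 to -0.27). Markers differed in the same cells: 0 of 7 monocyte markers were higher in EC-iCD45KO (summed 3625 and 1997 CPM), 11 of 11 macrophage markers were (5915 and 6972 CPM) and 0 of 7 B markers were (562 and 37.9 CPM). The part of these shifts in the members' values was not tested. The median of the 10 members was 0.64, beside -0.04 over all genes. Ccl7 and Ccl24 were at least 2-fold higher, where 1.64% of genes were, and Ccl8 and Ccl5 at least 2-fold lower, where 3.57% were. Ccl12 gave 0.73 (0.45–1.02), but -0.94 under a stricter cell filter, -0.50 without doublet removal and -1.09 with each library centred. Ccl8 gave 0.63 under a looser filter.

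In neutrophil-like cells Ccl3 and Ccl4 were near level between the libraries, and Ccl12, Ccl7, Ccl2 and Ccl9 were higher in EC-iCD45KO. Ccl3 differed by 0.11 (0.02–0.19), Ccl4 by 0.06 (0.00–0.13) and Ccl6 by 0.41 (0.26–0.55) on the log2 scale. Means of single-cell CPM gave -0.16 for Ccl3 and -0.19 for Ccl4. Ccl12 stood at 34.0 and 360.5 CPM (3.41, 2.81–4.07), Ccl7 at 23.7 and 168 CPM (2.83, 2.10–3.65) and Ccl2 at 59.2 and 214 CPM (1.86, 1.39–2.36). Macrophage markers moved with these in neutrophil-like cells, where 11 of 11 were higher in EC-iCD45KO and their sum stood at 3596 and 7152 CPM. In the neutrophil-like cells without a UMI of C1qa, C1qb, C1qc or Lyz2, 127 of 420 in WT and 119 of 1148 in EC-iCD45KO, the Ccl12 ratio was 1.65. Of 9 members that reached 5 CPM, 4 were at least 2-fold higher, where 6.01% of genes were, and 1 at least 2-fold lower, where 10.6% were. In T/NK-like cells, where cluster 8 was 60.6% of the WT and 39.6% of the EC-iCD45KO cells and cluster 17 was 20.3% and 45.2%, Ccl5 differed by -0.05 (-0.12 to 0.02).

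The members were also found outside leukocytes. Their directions were not particular to these classes. Over the 30 clusters with at least 50 cells in each library, leukocytes included, Ccl2 was higher in EC-iCD45KO beyond counting error in 28. Ccl7 was higher in 27 and Ccl12 in 24, while Ccl5 was lower in 23. Ccl8 was higher in 7 and lower in 16. In B-like cells 7 of 9 members were higher, as were 53.9% of all genes. In fibroblast-like cells 7 of 9 members were higher in EC-iCD45KO, as were 40.6% of all genes, with Ccl2 at 70.0 and 273 CPM and Ccl7 at 84.2 and 349 CPM. Ccl7 gave a log2 ratio of 2.05 (1.93–2.17), Ccl3 1.34 (1.13–1.54), Ccl9 1.19 (0.98–1.40) and Ccl12 1.06 (0.88–1.24). Over the alternatives the ratio of Ccl3 ran from 0.54 to 1.69, that of Ccl9 from 0.69 to 1.51 and that of Ccl12 from 0.73 to 1.21, each below 2-fold at its lowest. In the deep fibroblast-like cluster 24, described below, Ccl9 was level between the libraries. In the fibroblast-like cells without a UMI of C1qa, C1qb, C1qc or Lyz2 the ratio of Ccl7 was 1.29 and that of Ccl2 0.74. Such cells were 501 of 2639 in WT and 205 of 2867 in EC-iCD45KO, unlike parts of the class. Ccl8 stood at 153 and 151 CPM, with ratios from -0.73 to 0.29 over the alternatives, and Ccl5 was lower at 106 and 28.6 CPM. Ccl4 gave 0.67 (0.56–0.77), and -0.046 with each library centred. The members' median was 1.06, beside -0.07 over all genes, with 5 members at least 2-fold higher, where 1.55% of genes were, and 1 lower, where 2.93% were. With each library centred the median was 0.54. In SMC-like cells (smooth muscle) the median was 0.92, with 4 of 9 members at least 2-fold higher (1.27% of genes) and 2 lower (4.15%). It was 0.044 in the SMC-like cells without a UMI of C1qa, C1qb, C1qc or Lyz2, which were 458 of 2030 in WT and 220 of 3176 in EC-iCD45KO. In EC-like cells, the target of the deletion, the median was 0.80, with 3 of 9 members at least 2-fold higher (1.49% of genes) and 1 lower (3.64%). The higher ones were Ccl2, Ccl7 and Ccl9, and the lower one Ccl5.

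Markers of other classes moved with these values. The 11 macrophage markers summed to 2201 and 3197 CPM in fibroblast-like, 1710 and 2963 CPM in SMC-like and 2987 and 3768 CPM in EC-like cells, with 10, 11 and 11 of them higher in EC-iCD45KO. The 12 T/NK markers, beside the lower Ccl5, summed to 317 and 78.1 CPM, 450 and 68.9 CPM and 444 and 85.7 CPM, with 0, 0 and 1 higher. As a description, each member except Ccl5 was set against the summed UMIs of C1qa, C1qb and C1qc, as a multiple of the same ratio in macrophage-like cells of that library. In EC-like cells the multiples of Ccl2, Ccl7, Ccl12, Ccl3, Ccl4, Ccl6 and Ccl9 ran from 1.17 to 1.91, beside 1.18 to 2.58 for the same genes in B-like cells. In the deep EC-like cluster 12, Ccl12 stood at 8.91 and 28.2 CPM, against 120.4 and 187 CPM in the shallow EC-like cluster 1. A class that holds a member but little C1q raises this multiple too, and the macrophage-like ratio mixes clusters, so the part of free RNA in the members' values was not tested.

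Among the members set against C1q, which leaves out Ccl5, Ccl7 had the highest multiple in WT fibroblast-like cells. The multiples of Ccl2 and Ccl7 were 3.06 (2.79–3.35) and 4.39 (4.02–4.79) in WT and 4.28 (4.10–4.47) and 6.21 (5.97–6.45) in EC-iCD45KO, while that of Ccl12 was 1.21 and 1.09. In WT the multiple of Ccl9, 2.89 (2.52–3.30), overlapped that of Ccl2, and in EC-iCD45KO it was 2.49 (2.30–2.70). The deep fibroblast-like cluster 24, led by Sfrp4 and Saa3, was examined apart. There the multiple of Ccl7 was 17.0 (14.4–19.9) in WT and 35.8 (34.0–37.7) in EC-iCD45KO and that of Ccl2 was 8.38 (6.79–10.2) and 20.6 (19.3–21.9). Ccl12 gave 0.69 and 1.13 and Ccl6 1.48 and 1.24. In that cluster Ccl2 stood at 62.8 CPM (51.0–76.5) and 373 CPM (351–396), a log2 ratio of 2.57 (2.27–2.88), and Ccl7 at 107 CPM (91.1–124) and 572 CPM (545–600), a ratio of 2.42 (2.19–2.66). The 1% of cells with most Ccl2 held 29.3% of its UMIs in WT and 42.6% in EC-iCD45KO, and without the top cell of each library the Ccl2 ratio was 2.63. Ccl9 was level in cluster 24, with a log2 ratio of -7.6e-05 and -0.023 to 0.23 over the alternatives. Ccl3 gave 1.77 and Ccl12 1.71 there. The fibroblast-like cluster 22, led by Lum and Mgp, had multiples of 9.67 and 4.76 for Ccl2 and 13.1 and 3.88 for Ccl7, beside C1qa at 97.8 and 328 CPM. By level both genes were higher in EC-iCD45KO there, Ccl2 at 42.8 and 126 CPM (1.56, 1.29–1.83) and Ccl7 at 48.6 and 90.5 CPM (0.895, 0.62–1.17).

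**Figure D5:**
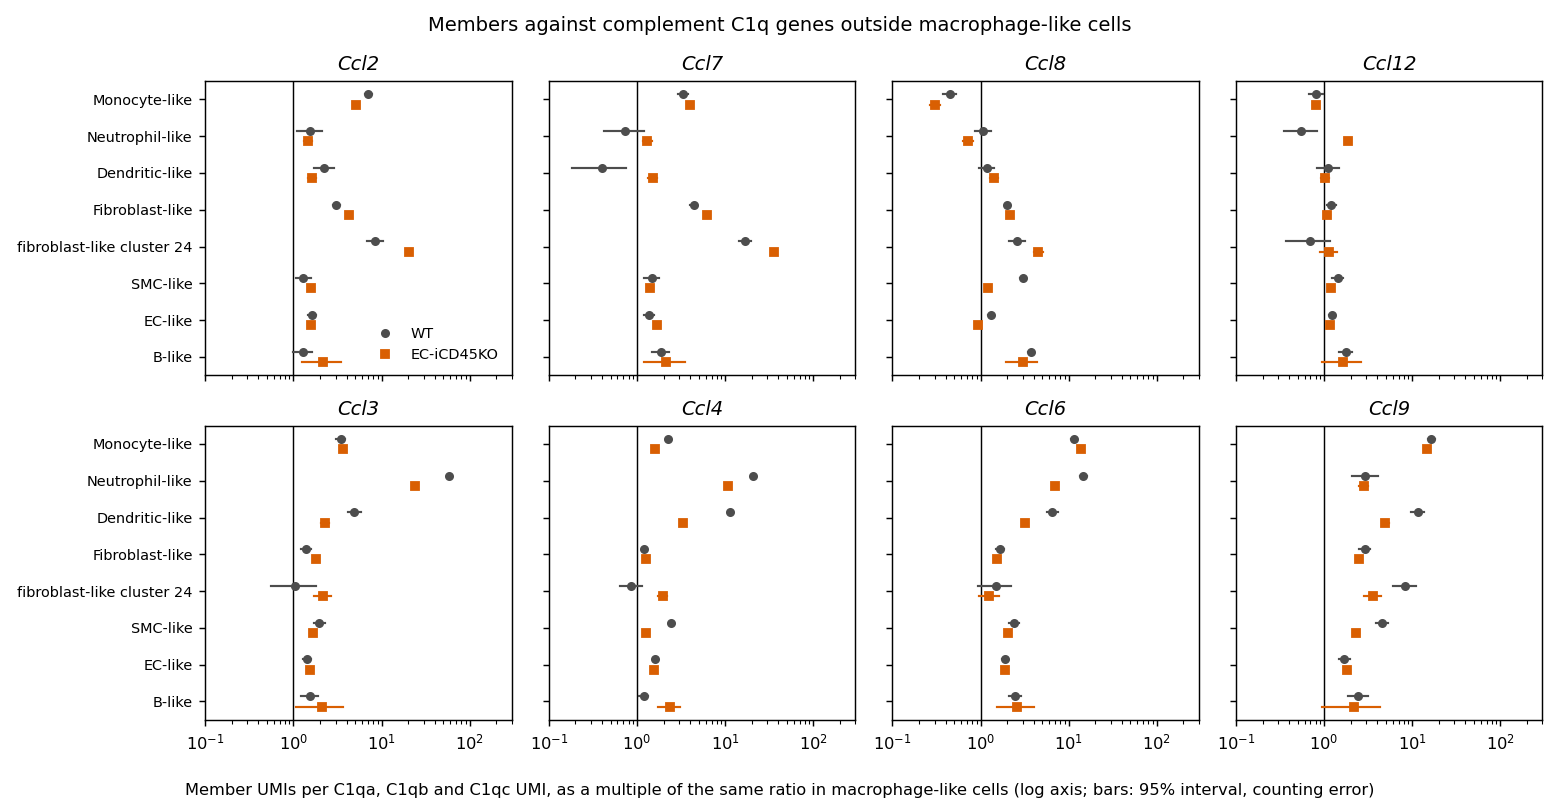
UMIs of 8 CC chemokines per UMI of C1qa, C1qb and C1qc in 7 classes and fibroblast-like cluster 24 (rows), as a multiple of the same ratio in macrophage-like cells of the same library (log axis), for WT (grey circles) and EC-iCD45KO (orange squares), with 95% intervals. Ccl2 and Ccl7 lie far right of 1 in fibroblast-like cluster 24, Ccl3 and Ccl4 in neutrophil-like cells and Ccl6 and Ccl9 in monocyte-like cells, while Ccl12 stays near 1 in most rows.

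The same measure was far above 1 where the levels were high. In monocyte-like cells it was 11.5 and 13.7 for Ccl6 and 16.4 and 14.7 for Ccl9, and in neutrophil-like cells 20.96 and 10.8 for Ccl4 and 14.7 and 6.99 for Ccl6, with Ccl3 higher still (58.2 in WT). For Ccl12 it was 0.81 and 0.80 in monocyte-like cells, and for Ccl8 0.45 and 0.30. In dendritic-like cells Ccl4 gave 11.4 and 3.31. Ccl5, set against the summed Cd3e, Cd3d, Cd3g, Trbc2 and Nkg7 of T/NK-like cells, gave 17.7 and 37.1 in dendritic-like cells and 0.86 and 1.10 in neutrophil-like cells.

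The receptors of these chemokines were measured in the same cells. Of 10 CC receptors, 4 reached 5 CPM in macrophage-like cells and 3 of them were higher in EC-iCD45KO, where 44.9% of all genes were. Ccr1, the receptor of Ccl6 and Ccl9, was at least 2-fold higher, at 24.7 and 53.7 CPM, and Ccr7 at least 2-fold lower, at 10.7 and 3.71 CPM. Ccr2, the receptor of Ccl2, Ccl7 and Ccl12, stood at 72.6 and 137 CPM in macrophage-like and 295 and 364 CPM in monocyte-like cells. The highest level of Ccr1 was in neutrophil-like cells, at 670.0 and 719.9 CPM. Ackr1, an atypical receptor that carries chemokines across venular endothelium, stood at 77.4 and 219 CPM in EC-like cells, a log2 ratio of 1.504 (1.38–1.63). Of the 10 other CC chemokines, 6 reached 5 CPM in fibroblast-like cells, of which 2 were higher in EC-iCD45KO, both at least 2-fold, and 1 at least 2-fold lower, with a median log2 ratio of -0.27, beside 40.6%, 1.55% and 2.93% of all genes. Ccl21a was the lower one, at 131 and 24.1 CPM. Ccl19, a CCR7 ligand of lymphoid stroma, was held by fibroblast-like cells at 211 and 781 CPM, with a ratio of 1.88 (1.81–1.96).

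Genes induced by NF-kB were set beside the members, as a list of 13. In macrophage-like cells 11 reached 5 CPM and 10 were higher in EC-iCD45KO, 1 of them at least 2-fold, with a median of 0.23. Of all genes tested there, 44.9% were higher and 1.16% at least 2-fold higher. Cxcl1, a neutrophil attractant, stood at 127 and 277 CPM, Il1b at 275 and 400 CPM and Tnf at 284 and 298 CPM. In fibroblast-like cells 12 reached 5 CPM and 11 were higher, 4 at least 2-fold, with a median of 0.42, beside 40.6% and 1.55% of all genes. Il6 stood at 28.4 and 71.0 CPM there and Cxcl1 at 151 and 361 CPM. Early-response genes of tissue dissociation, a list of 11, differed less, with 3 higher in macrophage-like and 6 in fibroblast-like cells, 0 of them at least 2-fold, and medians of -0.05 and 0.07.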

How the data were processed

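The authors deposited 1 filtered gene-by-barcode matrix of UMI counts per library, unnormalized. Cell Ranger 7.1.0 and mm10 are named in the submitters' processing notes. The 10 members, the gene lists and the markers were chosen with earlier results of these data known. Cells with at least 500 UMIs and 300 genes and at most 10% mitochondrial UMIs were kept. Scrublet's own threshold called 5 and 0 cells, so the 10% of cells with the highest doublet scores in each library were removed. Cells were clustered (2000 variable genes, 30 principal components, 20 neighbours, Leiden resolution 1) with the members, Ptprc and the list genes left out, which gave 39 clusters, named "X-like" from fixed markers. The naming thresholds and the doublet rule were set after the data were seen.

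Counts were summed per class and library and scaled to CPM. Levels have exact Poisson, shares exact Clopper-Pearson and log2 ratios exact conditional binomial 95% intervals, for counting error only. With 1 library per group no test was run. Medians and 2-fold counts took the members whose mean reached 5 CPM. For shares, cells were thinned to 1000 UMIs and shallower cells left out. The genes named beside the members are those of the fixed lists and the 3 most alike to each member over clusters, among genes reaching 50 CPM; a few of these are not reported here. Genes leading clusters, and cluster 6's split, were chosen after their values were seen. Alternatives were other filters, clusterings, scalings, thinning depths and cells free of C1q and Lyz2 UMIs. Equal cluster weights, removal of the top cell and the clusters' ratios were added after seeing the data. The ratios were checked on simulated counts with Poisson spread, which the intervals assume. That check covers the calculation and not the wider spread of the real counts. Software was Python 3.11.15, scanpy 1.11.5, leidenalg 0.10.2, scipy 1.17.1, R 4.3.3 and, for TMM scaling, edgeR 4.0.16.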

Additional observations from a re-analysis of the deposited data

Results flagged for a closer look

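Ccl4 had opposite directions in different classes, higher in EC-iCD45KO in fibroblast-like cells (log2 ratio 0.67) and lower in monocyte-like cells (-0.37). With each library centred the fibroblast-like ratio was -0.046. Ccl24 was higher in EC-iCD45KO in monocyte-like cells (1.43) and lower in macrophage-like cells (-1.70), where means of single-cell CPM gave -0.043. With 1 library per group, neither difference between classes was tested.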

How the results depend on the processing

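No paired analysis was possible because there was 1 library per group. The depth is that of 1 library per group, so the spread between animals is unknown, and Ccl24 rests on few UMIs. The members' medians were set against the median of the members' lower limits and the median of their upper limits, which is not an interval of the median. Of 47 values of the medians under the alternatives, 35 lay within these limits, 12 lay outside and 0 changed sign. Of 360 shares of cells with a UMI, without thinning or thinned to 2000 UMIs, 114 stayed within the interval of the reported share and 246 moved out of it. The macrophage-like median was 0.35 with each library centred and 0.12 with clusters weighted equally. The fibroblast-like median was 0.84 under a stricter filter, 0.73 under a looser filter, 0.54 centred, 0.77 at resolution 2 and 0.74 in cells without C1q or Lyz2 UMIs. The SMC-like median was 0.58 under a stricter filter, 1.59 without doublet removal and 0.044 in cells without C1q or Lyz2 UMIs. The EC-like median was 1.06 without doublet removal and 0.98 from means of single-cell CPM.

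Of 935 log2 ratios by class and 350 by cluster under the alternatives, 19 and 6 had the opposite sign of a reported ratio that lay beyond counting error. Sign changes of ratios within counting error are not counted. The cause was not tested. With each library centred, Ccl4 gave -0.046 in fibroblast-like cells, 0.27 in SMC-like cells, 0.41 in cluster 6 and 0.26 in cluster 9, and Ccl12 -1.09 in monocyte-like cells. Without doublet removal, Ccl8 gave 0.21 and Ccl4 0.92 in SMC-like cells and Ccl12 -0.50 in monocyte-like cells. Under a stricter filter Ccl12 gave -0.94 in monocyte-like cells, and in cluster 9 Ccl8 gave -0.30 and Ccl6 -0.058. Under a looser filter Ccl8 gave 0.63 in monocyte-like cells and Ccl3 -0.15 in cluster 2. At resolution 2 Ccl8 gave -0.37 in cluster 9. From means of single-cell CPM, Ccl4 gave 0.21 in SMC-like cells and -0.19 in neutrophil-like cells, and Ccl3 -0.16 in neutrophil-like cells. With clusters weighted equally Ccl4 gave 0.13 in SMC-like cells. In cells without C1q or Lyz2 UMIs, Ccl6 gave -0.10 in SMC-like and -1.06 in T/NK-like cells, Ccl12 -0.21 in EC-like, Ccl3 -0.056 in neutrophil-like, Ccl7 -0.77 in T/NK-like, and Ccl2 -1.54 and Ccl8 -0.32 in Schwann-like cells. A cluster got no value where no cluster of the alternative shared at least 50% of their union.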

Other observations

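An unnamed cluster led by the interferon-induced genes Rsad2, Slfn4 and Ifit3, with 490 WT and 156 EC-iCD45KO cells, held several members at high levels. Ccl12 stood at 418 and 1515 CPM there, Ccl4 at 1920 and 4275 CPM, Ccl2 at 330 and 920 CPM and Ccl7 at 243 and 918 CPM. Ccl5 had the opposite order, at 773 and 322 CPM. Ccl8 was level at 148 and 149 CPM. Markers differed within the cluster as well, with C1qa at 2652 and 6001 CPM, Trem2 at 351 and 790.05 CPM, Ly6c2 at 560 and 20.8 CPM and Chil3 at 84.1 and 12.5 CPM. Their part in the members' values was not tested.

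Within T/NK-like cells, cluster 8, led by Nkg7, Ms4a4b and Lef1, held Ccl5 at 2173 CPM (2133 to 2213) in 2511 WT cells and 3093 CPM (2949 to 3242) in 205 EC-iCD45KO cells, a log2 ratio of 0.51 (0.44 to 0.58). The share of its cells with a Ccl5 UMI after thinning was 30.6% and 51.6%. The cluster may hold several kinds of T cell: a finer clustering gave a T/NK-like cluster led by Lef1, with 1932 WT and 114 EC-iCD45KO cells, and one led by Nkg7, with 575 and 92 cells.

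Over all cells, macrophage-like cells were 6.65% of the WT and 29.9% of the EC-iCD45KO library and held 42.5% and 71.6% of the Ccl8 UMIs. Ccl8 stood at 241 and 238 CPM over the whole libraries, although it differed within macrophage-like cells. T/NK-like cells were 11.6% and 1.98% of cells and held 52.1% and 29.2% of the Ccl5 UMIs, and Ccl5 stood at 269.5 and 73.9 CPM overall.

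In Schwann-like cells Ccl8 stood at 58.0 and 602 CPM (16 and 596 UMIs), a log2 ratio of 3.38 (2.66 to 4.19), or 2.03 without the cell holding most of its UMIs in each library. The direction was not particular to Ccl8. All 9 members that reached 5 CPM were at least 2-fold higher there, where 13.2% of all genes were, with a median of 1.91. In the 30 WT and 45 EC-iCD45KO cells of the class without a UMI of C1qa, C1qb, C1qc or Lyz2 the Ccl8 ratio was -0.32. C1qa stood at 772 and 2363 CPM and Lyz2 at 1175 and 4315 CPM in the class.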
